A study of Mus musculus with 14 samples.

Results

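The genes described here are 57 axon guidance ligands and receptors of the mouse, among 21938 protein-coding genes on the assembled chromosomes. They were chosen by name as the genes of the ephrins and their Eph receptors (21 genes), the semaphorins (20 genes), the Slits and their Robo receptors (7 genes) and the netrins with the receptors DCC and UNC5 (9 genes). All 57 names were found in the annotation. For each gene, the sites of a deposited H3K27me3 list were collected that overlapped its body or the windows reaching 1 kb to either side of its annotated start sites. The width of these sites and the share of bases they cover were then measured. Below, a promoter site is a site that overlaps such a window, and a wide promoter site is one of at least 2 kb.

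The sites came from chromatin immunoprecipitation followed by sequencing (ChIP-seq) of H3K27me3, the trimethylation of lysine 27 of histone H3, in iMEF cells, immortalised mouse embryo fibroblasts. The study asked what happens to histone marks once ASH2L, a core subunit of the KMT2 enzymes that methylate H3K4, is degraded. There were 12 H3K27me3 libraries, in 6 groups with 2 replicates per group. The groups were a control and exposures to dTAG-13 lasting 30 min, 2 h, 4 h, 8 h or 16 h, and the 2 input libraries belonged to the control and the 16 h exposure. The list holds 153983 sites for all H3K27me3 libraries together and gives no value for any library. In all groups, the controls included, exon 4 of the floxed endogenous Ash2l had been deleted by an inducible Cre-ER recombinase, and the cells lived on FKBP-HA2-ASH2L, human ASH2L fused to a mutant FKBP12 and brought in by lentivirus. dTAG-13 is a PROTAC that ties this fusion to an E3 ubiquitin ligase. The cells were 1 clone of 1 immortalised line. Since the list has no values per library, control and treated cells were not compared here, and the values tell where sites were called over the whole set of libraries. How many reads stood behind each site is unknown. The list holds no expression values, so that neither the identity of the cells nor the transcription of the genes was checked.

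Axon guidance proteins steer the growing tips of nerve fibres, some by attracting them and others by repelling them. Ephrins stay on the cell surface and are read by Eph receptor tyrosine kinases on the neighbouring cell, semaphorins are read by plexins and neuropilins, Slits by Robo receptors, and netrins by DCC and the UNC5 receptors. The same proteins also take part in vessel growth, cell sorting and cell migration outside the nervous system. H3K27me3 is set by Polycomb repressive complex 2, and wide stretches of the mark are typical of developmental genes that are silent in a given cell type, often with CpG-rich promoters.

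Promoter sequences are shown for 8 genes, since in each family the mark was listed over a long stretch at 1 promoter while another promoter of the same family had no site. The first of each pair is the gene with the widest promoter site among those of its family with a RefSeq promoter entry, and its sequence lay entirely within a listed site. The other is the longest gene of the family with no site in body or windows. The sequences are those of RefSeq on GRCm38.p6 and cover up to 250 bases before the gene start, written 5′ to 3′ on the strand of the gene, and exonic bases at their 3′ end were left out. The pairs are Epha8 (chr4:136956817-136957066, minus strand) and Efnb2 (chr8:8661243-8661492, minus strand), Sema6b (chr17:56140344-56140593, minus strand) and Sema4b (chr7:80186620-80186840, plus strand), Robo4 (chr9:37401722-37401896, plus strand) and Slit2 (chr5:47982905-47983137, plus strand), and Unc5a (chr13:54949161-54949410, plus strand) and Unc5b (chr10:60831582-60831831, minus strand). Capitals mark each CG dinucleotide, the only motif searched, which reads the same on both strands.
Epha8: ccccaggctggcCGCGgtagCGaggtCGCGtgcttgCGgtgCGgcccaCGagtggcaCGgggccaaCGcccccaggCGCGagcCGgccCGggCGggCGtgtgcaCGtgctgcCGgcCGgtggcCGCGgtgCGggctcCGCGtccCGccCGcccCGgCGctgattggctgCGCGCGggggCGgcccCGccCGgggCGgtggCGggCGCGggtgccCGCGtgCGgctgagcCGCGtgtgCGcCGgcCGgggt
Efnb2: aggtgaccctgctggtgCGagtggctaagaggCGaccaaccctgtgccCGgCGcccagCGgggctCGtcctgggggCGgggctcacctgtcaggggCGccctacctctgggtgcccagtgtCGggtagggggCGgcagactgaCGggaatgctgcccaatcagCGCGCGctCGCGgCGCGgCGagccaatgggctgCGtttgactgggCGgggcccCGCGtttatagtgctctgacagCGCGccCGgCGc
Sema6b: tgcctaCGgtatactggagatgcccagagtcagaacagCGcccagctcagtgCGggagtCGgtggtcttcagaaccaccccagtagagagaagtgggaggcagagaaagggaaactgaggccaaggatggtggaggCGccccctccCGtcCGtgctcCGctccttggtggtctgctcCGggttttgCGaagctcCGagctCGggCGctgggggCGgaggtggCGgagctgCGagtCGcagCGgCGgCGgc
Sema4b: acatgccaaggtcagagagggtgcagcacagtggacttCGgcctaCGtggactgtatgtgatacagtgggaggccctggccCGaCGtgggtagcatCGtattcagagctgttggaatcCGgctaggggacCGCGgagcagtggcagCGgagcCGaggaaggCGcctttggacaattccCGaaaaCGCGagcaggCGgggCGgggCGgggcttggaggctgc
Robo4: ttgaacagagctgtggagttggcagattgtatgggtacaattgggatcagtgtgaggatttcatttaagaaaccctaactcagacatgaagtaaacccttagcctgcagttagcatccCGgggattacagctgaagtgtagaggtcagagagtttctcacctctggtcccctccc
Slit2: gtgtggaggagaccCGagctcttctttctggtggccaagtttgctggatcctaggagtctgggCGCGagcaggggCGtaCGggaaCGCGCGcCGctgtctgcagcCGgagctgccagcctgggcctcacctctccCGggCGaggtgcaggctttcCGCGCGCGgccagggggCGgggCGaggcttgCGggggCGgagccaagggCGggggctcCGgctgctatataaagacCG
Unc5a: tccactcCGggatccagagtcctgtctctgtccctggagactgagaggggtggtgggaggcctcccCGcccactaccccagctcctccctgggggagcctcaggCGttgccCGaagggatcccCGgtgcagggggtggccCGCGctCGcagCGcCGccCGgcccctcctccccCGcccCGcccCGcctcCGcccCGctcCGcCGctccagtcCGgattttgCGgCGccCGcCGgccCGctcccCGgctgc
Unc5b: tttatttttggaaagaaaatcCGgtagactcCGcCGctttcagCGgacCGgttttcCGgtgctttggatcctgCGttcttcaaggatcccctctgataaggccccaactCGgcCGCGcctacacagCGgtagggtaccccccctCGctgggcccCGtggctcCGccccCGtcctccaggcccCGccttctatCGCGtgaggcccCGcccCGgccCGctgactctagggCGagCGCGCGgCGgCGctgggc

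The number of CG dinucleotides did not separate the promoters with a wide site from those without a site. Epha8 had 46 of them in 250 bases, whereas Robo4, whose promoter was equally covered, had 1 in 175 bases. Unc5a and Unc5b, an UNC5 receptor with and one without sites, had 25 and 27 in stretches of the same length. Efnb2 had 27 in 250 bases, Sema6b 20 in 250 bases, Slit2 23 in 233 bases and Sema4b 17 in 221 bases. Of the 57 genes, 49 were matched to a RefSeq promoter of 250 bases, and their median number of CG was 17.0. The median was likewise 17.0 for the 15 matched genes with a wide promoter site and was 24.0 for the 8 matched genes with no site. Across all RefSeq promoters of this length the median was 6.0, and 92.1% held at least 1 CG.

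Most of the guidance genes carried the mark at a promoter, and the sites ranged from the shortest that the list holds to a stretch longer than the gene itself. A promoter site of any width was listed for 37 of the 57 genes (64.9%, 95% Wilson interval 51.9 to 76.0), compared with 31.5% of all protein-coding genes. A wide promoter site was present at 19 genes (33.3%, interval 22.5 to 46.3) compared with 16.1% of all genes. The share of guidance genes was also the higher one at larger widths, with 12 genes (21.1%, interval 12.5 to 33.3) against 8.69% for sites of at least 5 kb, and 8 genes (14.0%, interval 7.29 to 25.3) against 3.82% for sites of at least 10 kb. These intervals cover the counting of genes only, and genes of 1 family or 1 locus are not independent. Of the wide sites in bodies or windows, 2 also overlapped another protein-coding gene, Lrg1 next to Sema6b and Hk3 next to Unc5a, and cannot be assigned to 1 gene alone. The genes just above 2 kb were Sema4a with 2374 bp, Efna2 with 2459 bp and Ephb3 with 2591 bp, and those just below were Sema6c with 1990 bp, Sema7a with 1797 bp and Epha6 with 1748 bp.

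**Figure D1:**
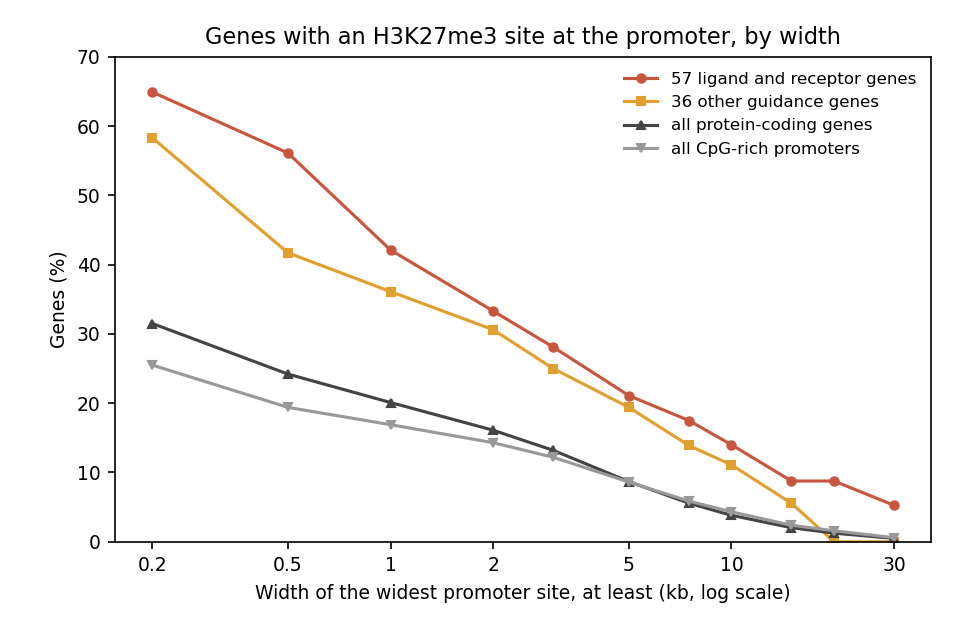
Share of genes in percent (vertical axis) whose widest promoter site is at least as wide as the value on the horizontal axis (kb, log scale), for the 57 ligand and receptor genes, 36 other guidance genes, all 21938 protein-coding genes and all genes with a CpG-rich promoter. At 2 kb the curves stand at 33.3%, 30.6%, 16.1% and 14.3%, and at 30 kb 5.26% of the 57 genes remain, compared with 0.488% of all genes.

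Guidance genes had many annotated start sites, 308 in all, each of which adds a window in which a site can fall. When only the single annotated start of each gene was used, 32 of the 57 genes (56.1%) had a promoter site compared with 25.3% of all genes, and 18 (31.6%) had a wide one compared with 14.3%. Counted by start site instead of by gene, 69 of the 308 start sites (22.4%) lay within a site, compared with 13.0% over all genes. The shares for the guidance genes were thus above those for all genes in each way of counting.

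The body of the gene gave a different picture from the promoter. A site anywhere in body or windows was found for 47 of the 57 genes (82.5%, interval 70.6 to 90.2) and for 48.0% of all genes. The guidance genes were longer, with a median body of 56.6 kb compared with 17.4 kb over all genes. With bodies of at least 100 kb, 1 of 27 guidance genes and 446 of 2492 of all genes had no site. With shorter bodies, 9 of 30 and 10958 of 19446 had none. The sites of the guidance genes were mostly short, as were those of the whole list. Of their 374 distinct sites, 58 (15.5%) had the smallest width of the list, 200 bp, compared with 12.6% of all sites. The median was 394 bp, compared with 455 bp for the whole list. At least 1 kb was reached by 25.4%, compared with 23.3% of all sites. On the other hand, 15 of the 374 sites (4.01%) were at least 10 kb wide, compared with 0.944% of all sites. The median share of body and windows covered by sites was only 0.805% over the 57 genes, and it was 0% over all genes, most of which had no site at all. At least 50% was covered in 9 genes (15.8%, interval 8.54 to 27.4), which does not stand clear of the 9.28% of all genes.

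Pooled over their bases, the guidance genes were covered less than all genes, at 5.08% compared with 6.98% for all genes, and 9.98 of their 10.7 Mb belonged to bodies of at least 100 kb. In the 27 guidance genes with a body of at least 100 kb, 3.42% was covered (5.16% for all such genes), and in the 30 shorter ones 29.4% (9.53% for all such genes). Wide promoter sites were found at 8 of the 27 long genes (29.6%, interval 15.9 to 48.5), close to the 24.3% of all long genes, and at 11 of the 30 shorter ones (36.7%, interval 21.9 to 54.5), compared with 15.0%. The Spearman correlation of length and covered share was -0.225 across the 57 genes and 0.146 across all genes. It describes genes that share 1 set of libraries, and a long body with 1 site of fixed width has a small covered share by construction.

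**Figure D2:**
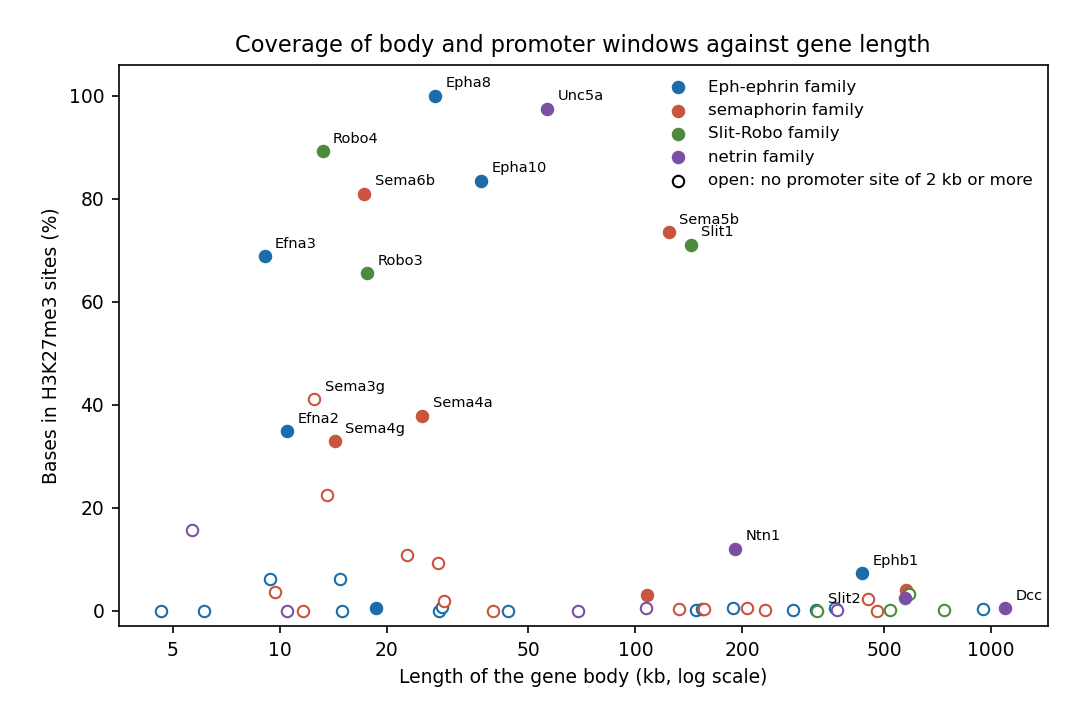
Share of body and promoter windows in H3K27me3 sites (vertical axis, percent) against the length of the gene body (horizontal axis, kb, log scale), 1 point for each of the 57 genes, coloured by family, with filled points for genes with a promoter site of at least 2 kb. The genes covered by at least 65.5% reach a body length of 143 kb (Slit1), and the longest gene, Dcc, stands at 0.563% although its promoter carries a site of 3.53 kb.

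By family, 3.66% of the pooled bases of the Eph and ephrin genes lay in sites, 6.52% of the semaphorin genes, 6.34% of the Slit and Robo genes and 4.10% of the netrin and netrin receptor genes. These values depend on the long genes. In bodies under 100 kb alone, a choice made after seeing the data, the shares were 27.4%, 19.1%, 75.8% and 39.3% in the same order. The semaphorins thus passed from the highest to the lowest place. The Slit and Robo value there came from Robo3 and Robo4 alone, which are neighbours and not independent. The medians over all genes of a family were 0.527%, 3.43%, 3.27% and 0.563%, again in this order. A wide promoter site was listed for 6 of the 21 Eph and ephrin genes, 6 of the 20 semaphorins, 3 of the 7 Slit and Robo genes and 4 of the 9 netrin genes. In each of the 4 families at least 1 gene was covered by more than 80% and at least 1 gene had no site. The receptors (Eph, Robo, DCC and UNC5) had a wide promoter site in 9 of 23 genes and the ligands in 10 of 34. Single genes vary more than pooled values by construction, so these ranges within families cannot be set against the differences between families.

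**Figure D3:**
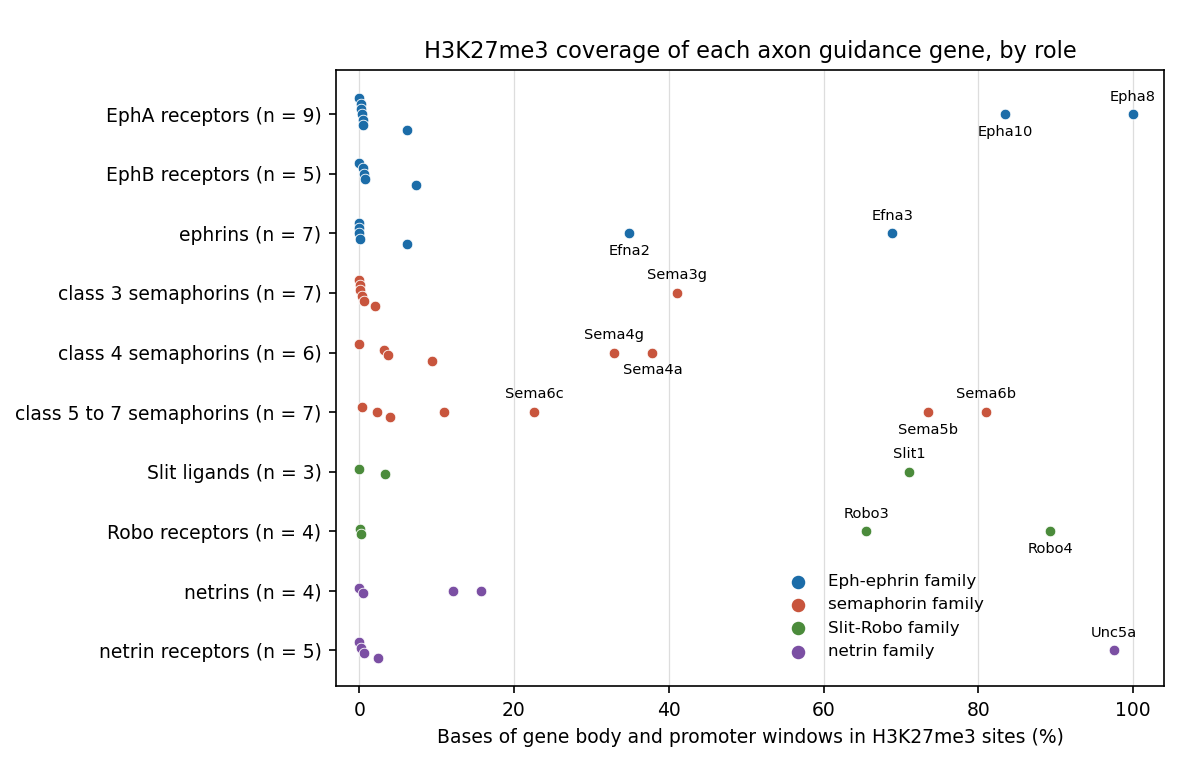
Share of gene body and promoter windows in H3K27me3 sites (horizontal axis, percent) for each of the 57 genes, in rows by role and coloured by family, and named where it is at least 20%. Points at low values are spread vertically so that they can be told apart. In most rows, a few genes stand far to the right of the others, such as Epha8 at 100% and Unc5a at 97.5%.

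Among the 9 EphA receptors, which bind the A-type ephrins, Epha8 and Epha10 were nearly filled with the mark while the other 7 were covered by at most 6.19%. The Epha8 site (chr4:136924490-136978099) was 53.6 kb wide, spanned all 17 exons and every intron of the 27.4 kb gene, and reached 21.3 kb upstream of its start, so that 100% of body and window was covered. It was the widest site of any guidance gene. Epha10, an Eph receptor whose kinase domain is regarded as inactive, had a site of 31.0 kb (chr4:124877569-124908571) that took in the start and 8 of the 17 exons, and 83.5% of body and windows was covered. The remaining EphA genes showed what a small share means in a long gene. Epha6 had its start in a site of 1.75 kb, yet only 0.441% of its 952 kb body and windows was covered. Epha5 (1.25 kb), Epha1 (0.305 kb) and Epha7 (0.20 kb) had narrow promoter sites with covered shares of 0.549%, 6.19% and 0.312%. Epha3 and Epha4, the latter a receptor in the guidance of motor and corticospinal axons, had sites in the body only, covering 0.190% and 0.269%. Epha2, which is widely expressed in epithelia, had no site, and the nearest one lay 38.4 kb from its start.

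Of the 5 EphB receptors, which bind the B-type ephrins, Ephb1 alone had a site over its start. Ephb1 directs retinal axons that stay on their own side at the optic chiasm. Its site (chr9:102347551-102358370) was 10.8 kb wide, lay 7.14 kb downstream and 3.68 kb upstream of the start and held 1 of the 18 exons, so that it was intronic for most of its length within the gene. In all, 48 sites were scattered over the 433 kb body, and the covered share was 7.28%, the highest of the EphB genes. Ephb3 counted as a gene with a wide promoter site, but its 2.59 kb site (chr16:21201267-21203857) ended 898 bp before the start, touched the window alone and left the whole body free, with 0.527% covered. Ephb2 (0.224 kb) and Ephb4 (0.997 kb) had narrow promoter sites, with 0.612% and 0.805% covered. Ephb4 is the venous partner of ephrin-B2, and its body held no site. Ephb6, with a kinase domain that lacks activity, had none in body or windows.

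The 7 ephrin genes were short, with a median length of 9.41 kb, and differed widely. Efna3 was the most covered ephrin, at 68.9%. Its site of 7.32 kb (chr3:89317454-89324774) covered the start, 2 of 6 exons and all of the promoter windows. Efna2 had a site of 2.46 kb (chr10:80178822-80181280) over the start and its first exon and a second one of 4.70 kb over its end, with 34.9% covered. Efna1 had a promoter site of 0.647 kb that lay 221 bp from the gene start (6.22% covered), and Efna5 had short sites in the body only (0.161% covered). Efna4, Efnb2 and Efnb3 had no site. Efna1, Efna3 and Efna4 lie close together on chromosome 3, and the start of Efna4, with no site, lay 6.31 kb from the nearest site of the list. Efnb2 marks arterial endothelium, and neither B-type ephrin gene examined had a site.

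Among the semaphorins, the secreted class 3 genes, which repel axons through neuropilins and plexins, had the lowest covered shares as a class. None of the 7 had a wide promoter site, compared with 16.1% of all genes, and 7 genes are too few to call this a difference. A promoter site of any width was listed for 3 of them, compared with 31.5% of all genes. Of their pooled bases 0.760% was covered, against 9.32% for class 4 and 10.9% for classes 5 to 7. The medians over genes were 0.372%, 6.53% and 10.9%. Lengths differed as well, with median bodies of 156 kb, 26.6 kb and 124 kb. Sema3a, the classical repellent of sensory axons, had a site of 0.303 kb at its start and no other in 477 kb. Sema3d (0.998 kb) and Sema3f (0.595 kb) had narrow promoter sites too, with 0.663% and 1.98% covered. Sema3c and Sema3e had short sites in the body only, with 0.372% and 0.0861% covered, and Sema3b had none. Sema3g stood apart with 41.1% covered. It had no promoter site, but 4 sites in its 12.5 kb body, the widest of which (chr14:31227183-31232057, 4.88 kb) overlapped 1 of 16 exons at the 3′ end and ran on past the gene.

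The 6 class 4 semaphorins are transmembrane proteins, several of which are best known from the immune system, and 3 of them had a wide promoter site. Sema4a was covered by 37.9%, the most in its class, through 11 sites, of which the widest at a promoter window (chr3:88452824-88455197) was 2.37 kb. That site lay 5985 bp inside the gene and overlapped the windows of alternative start sites, whereas the annotated gene start was 504 bp from the nearest site. Sema4g had its start in a site of 4.88 kb (chr19:44987075-44991958) and was covered by 32.9%. Sema4d, also known as CD100 and a ligand of plexin B1, had its start in a gap between sites. A site of 3.94 kb (chr13:51794726-51798664) ended 979 bp upstream, another of 3.20 kb (chr13:51790512-51793711) began 36 bp inside the gene, and 3.17% of the gene was covered. Sema4c (0.679 kb) and Sema4f (0.994 kb) had narrow promoter sites with 3.70% and 9.36% covered, and Sema4b had none.

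Of the 7 semaphorins of classes 5 to 7, Sema6b and Sema5b were covered over most of their length. Sema6b, a transmembrane ligand of A-type plexins, was covered by 81.0%. Its promoter site of 26.9 kb (chr17:56135053-56162001) held only the first of 18 exons and extended 21.7 kb upstream and 5.29 kb downstream, and a second site of 13.5 kb covered 13 exons and reached into the neighbouring gene Lrg1. Sema5b, a transmembrane protein with thrombospondin repeats, was covered by 73.5% through 29 sites. The widest at its start (chr16:35528904-35549382) was 20.5 kb, and one of 20.1 kb (chr16:35649540-35669592) took in 14 of the 20 exons at the far end. Its relative Sema5a had 14 sites that covered 2.30% of a body of 452 kb, with 0.787 kb as the widest at a promoter. Sema6d had its start in a site of 3.51 kb (chr2:124088723-124092230), and 50 sites covered 4.03% of its 578 kb. Sema6c and the GPI-anchored Sema7a stayed just under 2 kb at their promoters but were covered by 22.6% and 10.9%. Sema6a had 2 short sites in the body, with 0.312% covered.

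The 3 Slit ligands, which keep axons from the midline, spanned the whole range. Slit1 was covered by 71.1% through 40 sites spread over 143 kb. Its start lay in a site of 14.3 kb (chr19:41732172-41746478), a second site of almost the same width (chr19:41656395-41670706) lay in introns only, and the longest stretch was 47.7 kb when sites closer than 1 kb were joined and 132 kb when those closer than 5 kb were. Slit2, with a body of 325 kb and 18 annotated start sites, had no site at all, and the closest one was 32.7 kb from its start. Slit3 lay between them with 36 sites that covered 3.27% of 587 kb, and 1.23 kb was its widest at a promoter. The 3 ligands of the Robo receptors thus differed from mostly covered to free of sites.

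Robo3 and Robo4 are neighbours on chromosome 9 in opposite orientation, and both were covered, unlike the long genes Robo1 and Robo2. Robo4, a receptor of endothelial cells, had a site of 12.8 kb (chr9:37398966-37411810) over its start and 14 of 16 exons, and 89.3% was covered. Robo3, which lets commissural axons cross the midline, had a site of 9.71 kb (chr9:37426690-37436401) over its start and 7 of 23 exons, and 65.5% was covered. Both belonged to a stretch of 101 kb when sites closer than 5 kb were joined, and so are not independent observations. Robo1, with 738 kb, had a promoter site of 0.722 kb at 1 of its 9 start sites and Robo2, with 520 kb, had none, and 0.20% and 0.148% were covered.

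The 4 netrins are secreted relatives of laminin. Ntn1, which attracts commissural axons through DCC, had its start in a site of 9.26 kb (chr11:68393579-68402837) that held 2 of its 9 exons. A further promoter site of 3.54 kb (chr11:68383132-68386667) began 14156 bp inside the gene and overlapped the window of an inner start site, but did not hold the start site itself. In all, 12.1% of the 191 kb gene was covered, mostly in the part next to the start. Ntn3 had the largest covered share among the netrins, 15.8%, but with a promoter site of 0.334 kb and a widest site (725 bp) in a body of 5.68 kb that overlaps the gene Tbc1d24. Ntn4, a netrin of basement membranes, had short sites in the body only, with 0.540% covered, and Ntn5 had no site.

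Among the 5 netrin receptors, Unc5a was almost filled while its 3 relatives were covered by at most 2.42%. Unc5a had a site of 33.3 kb (chr13:54937532-54970847) over its start and first exon, and another of 37.7 kb (chr13:54973826-55011547) over 15 of 16 exons, which overlapped the gene Hk3 next to it. The covered share was 97.5%, and with sites closer than 5 kb joined the stretch was 244 kb. Unc5d had a site of 5.39 kb (chr8:29215793-29221187) that covered its start and all of its promoter windows, but 2.42% of its 573 kb. Dcc, the main attractive netrin receptor and the longest of the 57 genes with 1097 kb, was similar, with a site of 3.53 kb (chr18:72348412-72351939) over all 3 start sites and 93.7% of the promoter windows, but 0.563% of body and windows. Unc5c had 3 short sites in the body (0.182% covered). Unc5b, an UNC5 receptor of vessels, had no site, and the nearest lay 5.71 kb from its start. Ntn1 and its receptors Dcc, Unc5a and Unc5d therefore had their start in a wide site, and Unc5b and Unc5c had no promoter site.

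**Figure D4:**
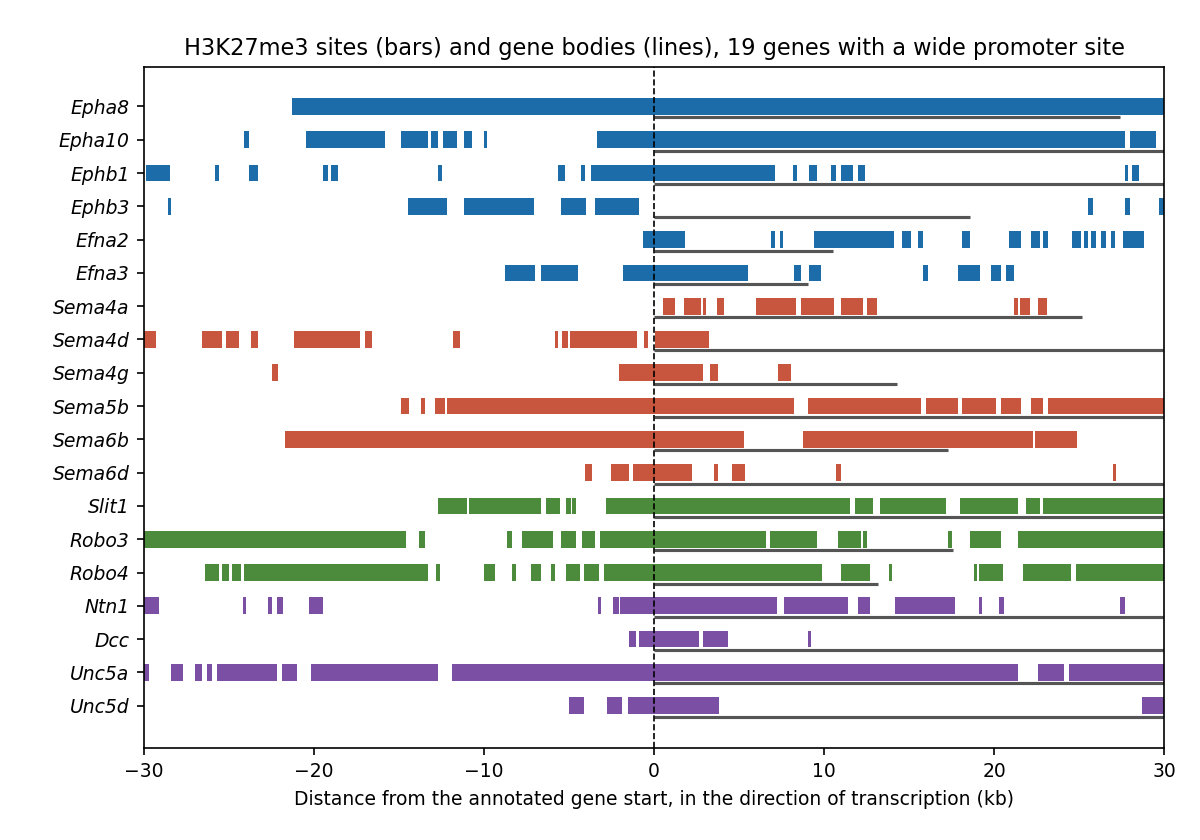
Listed H3K27me3 sites (bars, coloured by family) and gene bodies (grey lines) within 30 kb of the annotated start (dashed line) of the 19 genes with a wide promoter site, as distance in kb with the direction of transcription to the right. Sites of neighbouring genes are drawn as well. The start lies within a wide site in 16 genes, and the site at Ephb3 ends before the start.

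In 16 of the 19 genes with a wide promoter site, the annotated start lay within such a site. In 14 of them the site reached farther into the gene than upstream, and Sema5b and Sema6b had the opposite orientation. The median reach was 6.85 kb downstream (1.80 to 32.3) and 2.87 kb upstream (0.660 to 21.7). Direction and reach were not measured over all genes, so whether the guidance genes differ in them was not tested. The bodies were likewise covered most next to the start. Each body was divided into 3 equal parts. The mean covered share over the 57 genes was 22.9% next to the start, 15.9% in the middle and 12.8% at the end. Over all genes, these means were 12.6%, 10.8% and 10.3%. Pooled over bases, the guidance genes were instead below all genes, at 6.71%, 4.23% and 3.84% compared with 8.01%, 6.17% and 6.26%. Pooled over the 57 genes, exonic bases were covered by 15.1% and intronic bases by 4.50%, compared with 11.0% and 6.39% over all genes. Gene by gene, the exonic share was the higher one in 28 of the 57, the intronic share in 14, and they were equal in 15. Over all genes, these counts were 5969, 3917 and 12052.

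The wide sites were not limited to CpG-rich promoters, that is, those with at least 50% GC and an observed-to-expected CpG ratio of at least 0.6 in the 500 bp to either side of the gene start. Of the 37 guidance genes with such a promoter, 13 had a wide site (35.1%, interval 21.8 to 51.2), compared with 14.3% of all genes of this kind. Of the 20 others, 6 had one (30.0%, interval 14.5 to 51.9), compared with 17.5%, and here the interval includes the value for all genes. Among these 6, Ntn1 (0.59), Robo3 (0.58) and Dcc (0.57) had ratios just under the limit of 0.6. The wide site of Sema4a lay 5985 bp from the gene start, where the ratio was measured. Epha10 had a ratio of 0.33 and its start in a wide site. Robo4 had the lowest ratio of all 57 genes, 0.16, and yet its start lay in a site of 12.8 kb, whereas Unc5b had the highest, 0.98, and no site. Of the 10 genes without any site (Epha2, Ephb6, Efna4, Efnb2, Efnb3, Sema3b, Sema4b, Slit2, Ntn5 and Unc5b), 7 had a CpG-rich promoter. This is close to the 37 of all 57 guidance genes, and 9738 of the 21938 protein-coding genes had one.

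A list of 36 other genes of these pathways gave similar shares. Of these, 21 (58.3%, interval 42.2 to 72.9) had a promoter site, 11 (30.6%, interval 18 to 46.9) a wide one and 7 had no site, so that the receptors and ligands did not stand apart from their partners by these counts. Among the 9 plexins, which are the receptors of the semaphorins, Plxna4 had a promoter site of 13.3 kb and 59.9% of its body covered, Plxnc1, which binds Sema7a, one of 8.14 kb, and Plxnb3 one of 3.02 kb. In contrast, neither of the neuropilins Nrp1 and Nrp2, the co-receptors of the class 3 semaphorins, had a promoter site, and at most 0.855% was covered. Of the 3 genes of the RGM and neogenin group, Rgmb had a site of 2.71 kb and 10.6% covered. Among 7 further ligands and receptors, Draxin, a secreted repellent that binds DCC, had a site of 15.6 kb and 83.8% covered, Ntng2 one of 6.37 kb, the receptor Dscam one of 5.24 kb and Ntng1 one of 2.32 kb. Of the 15 intracellular transducers, 3 had a wide promoter site, namely Dpysl5 with 16.7 kb and 86.1% covered, Crmp1 with 11.9 kb and Ngef with 3.54 kb.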

How the data were processed

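H3K27me3 sites were taken from the deposited list of the 12 libraries, which gives chromosome, start and end for each site. Per the labels and the study's methods, the authors aligned reads with BWA to mm10 (GRCm38.p6), filtered with samtools, merged replicates with Picard, scaled to the lowest coverage and called broad peaks with MACS2. Versions, thresholds and the rule for combining peaks are not given in the sources used here. A list made over more or deeper libraries can hold more and wider sites. Positions are other values than counts or signal, so no test between groups was possible, and no p-value is given. Depth per sample is unknown.

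Sites were read as counted from 0, printed as counted from 1, and overlapped with GENCODE M21 genes (GRCm38) in Python 3.11.15 with NumPy 2.4.6 and SciPy 1.17.1. The overlap functions were tested on simulated sites. A gene body runs from the first to the last annotated base, and windows of all transcripts of a gene were merged. The genes, lists and thresholds were chosen with earlier results of these data known. Site positions were given for the genes with a wide promoter site and, except for Ntn3, for the most covered gene of each role. All genes without a site were named. Alternatives were other start sites, windows, minimum widths and joined sites.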

Additional observations from a re-analysis of the deposited data

How the results depend on the processing

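All results describe 1 list without values per library, so that no replicate could be left out. No paired analysis was possible because only positions are listed, and nothing per replicate. Of 57 alternatives computed for these results, 38 lay within 1.5 times of the reported value and 19 did not. Only sites of at least 1 kb left 24 of the 37 genes with a promoter site, and lowered the median share of the promoter windows (7.13% as reported) and of the body (0.551%) to 0 each. Only sites of at least 500 bp lowered the median of the body to 0.253%. With sites closer than 5 kb joined, 29 instead of 19 genes had a wide promoter site, the median of the promoter windows was 11.4%, and the pooled shares were 5.52% (Eph and ephrin) and 10.1% (semaphorin). With 5 kb as the limit for a wide site, 12 genes remained. The median of the promoter windows was 15.1% with the gene start only and 12% with protein-coding transcripts only. Medians over genes instead of pooled bases were 0.527% (Eph and ephrin), 3.43% (semaphorin), 3.27% (Slit and Robo) and 0.563% (netrin). Bodies under 100 kb only, an alternative chosen after seeing the data, gave 27.4%, 19.1%, 75.8% and 39.3% in the same order, so that the order of the families depends on this choice. Here the Slit and Robo value rests on the neighbours Robo3 and Robo4 alone.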

Other observations

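Among the intracellular transducers, 1 family held both highly covered genes and genes without a site. Dpysl5 and Crmp1 encode members of the collapsin response mediator family, which act downstream of semaphorins. Their bodies were covered by 85.9% and 61.6%, through 25 and 23 sites. Dpysl2 and Dpysl3, of the same family, had no site in body or windows, although all 4 had a CpG-rich promoter. Of the small GTPases on which guidance receptors act, Rhoa had no site, and Rac1 and Cdc42 had short sites in the body only, with 1.59% and 2.48% of body and windows covered. No such contrast was seen among Srgap1, Srgap2 and Srgap3, with 0%, 1.91% and 1.66% covered, or between Nck1 and Nck2, with 1.04% and 0%. All of these genes were named after their values were seen.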
